A study of Saccharomyces cerevisiae with 4 samples.

Results

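The genes described here encode the subunits of RNA polymerases I, II and III of budding yeast. Their 31 members were listed by systematic name, as the specific subunits of each enzyme and the subunits that the enzymes share. The rule itself uses no measured value, but the list was drawn up with earlier results of these data known. The deposited count table held 28 of the 31. These were 5 of the 7 specific subunits of RNA polymerase I (Pol I), 6 of the 7 of Pol II, all 10 of Pol III, and all 7 shared subunits. RPA190 (YOR341W) and RPO21 (YDL140C), which encode the largest subunits of Pol I and Pol II, and RPA14 (YDR156W), a stalk subunit of Pol I, were not analysed here. All 28 passed the filter on low counts.

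The 3 nuclear RNA polymerases are related enzymes with separate products. Pol I makes the precursor of the large ribosomal RNAs, Pol II makes mRNAs and most small nuclear and small nucleolar RNAs, and Pol III makes tRNAs, 5S rRNA and a few other short RNAs. Each has a core of a largest and a second-largest subunit that together form the active site, a stalk through which initiation factors bind and nascent RNA leaves, and small zinc-binding and assembly subunits. Some small subunits are built into all 3 enzymes, and the heterodimer of RPC40 and RPC19 serves both Pol I and Pol III. The genes for all of these proteins are themselves transcribed by Pol II. In yeast, many genes of ribosome production carry 2 promoter words, the PAC box, whose name stands for polymerase A and C (older names of Pol I and Pol III), and the RRPE, the ribosomal RNA processing element.

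The measurement was 4tU-seq, in which RNA made during a brief pulse of 4-thiouracil carries a thiol, by which it is purified and then sequenced. All cells were haploid BY4741, grown in YPD medium at 30 °C until the OD600 reached 0.8, and the pulse lasted 6 min at 5 mM. In the Δsyc1 group (2 libraries) the SYC1 gene was replaced by the kanMX cassette (syc1::kanMX), and the wild-type group (2 libraries) carried no such replacement. Syc1 is a subunit of the APT complex, whose remaining subunits are also found in CPF, the machinery of mRNA 3′ end cleavage and polyadenylation. The comparison asks which newly made RNAs change when Syc1 is absent.

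Libraries held 22880058 to 36175417 counts over 4970 regions. The label check came first: SYC1 had 1 and 2 counts in the Δsyc1 libraries against 743 and 794 in wild type. LEU2, URA3 and MET17, which are deleted in BY4741, had 0 counts in every library, which allows up to 3 counts each. The MATa gene STE2 had 287 to 735 CPM (counts per 1000000 counts of a library), whereas the MATα genes STE3 (2.77 to 4.30 CPM) and MF(ALPHA)1 (0 to 5 counts) were low and SAG1, another MATα gene, was not (87.0 to 95.2 CPM). No external standard was given, so that all values are shares of the labelled RNA of a library.

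The PAC word was at most genes of Pol I and Pol III and at few of Pol II. Since the word is named after Pol I and Pol III, these counts describe it and are not an independent finding. The PAC core GATGAG was looked for on both strands from 250 bases before to 50 bases after the first coding base of the RefSeq gene in the R64 (sacCer3) genome. It was found at 17 of the 31 genes, against 20.4% of 6001 protein-coding genes. Among them were 6 of the 7 Pol I genes, 8 of the 10 Pol III genes and both genes shared by Pol I and III. It was at 0 of the 5 genes shared by all 3 enzymes and at 1 of the 7 Pol II genes, RPB2, where the word lies inside the coding region. The longer PAC word GCGATGAG, which contains the core, was at 6 genes (RPA49, RPC82, RPC31, RPC25, RPC40 and RPC19), against 3.93% of all. The RRPE core AAAATTTT, which reads the same on both strands and does not overlap the PAC core, was at 16 of the 31 genes, against 9.03% of all. It was at 6 of the 7 Pol I, 2 of the 7 Pol II, 5 of the 10 Pol III and 3 of the 7 shared genes. In a shorter window of 150 bases before the first coding base the PAC core was at 12 of the 31, against 10.1% of all.

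**Figure D1:**
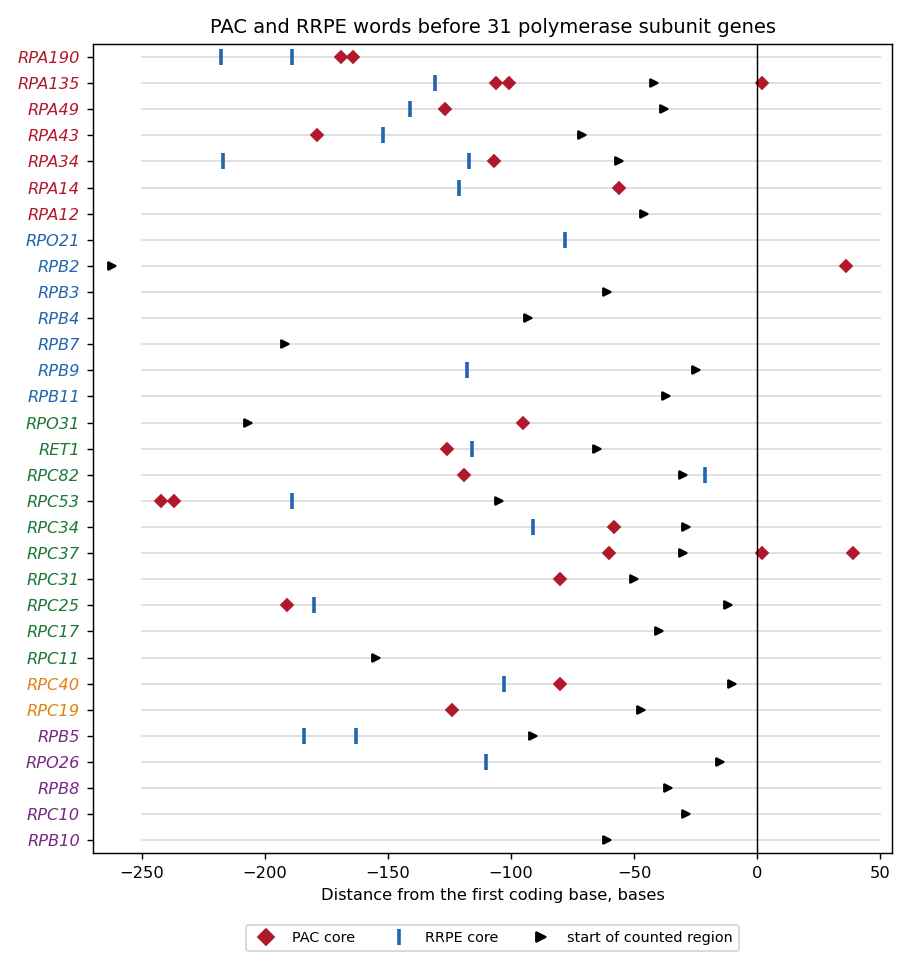
Positions of the PAC core (diamonds) and the RRPE core (bars) in the window of 31 subunit genes, by distance from the first coding base (x axis, bases). Triangles mark where the counted region starts (drawn outside the window for RPB2), gene names are coloured by enzyme, and PAC cores before the first coding base are seen at 16 genes, none of them a Pol II or a common subunit gene.

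Stretches of these promoters (R64 genome, 5′ to 3′ on the coding strand) show the words in place, with PAC cores and RRPE cores in capitals. A PAC core on the other strand reads CTCATC, and in RPA135 a pair of cores shares a base. The first 3 genes have the core in Pol I or Pol III promoters, and the next 5 have the longer PAC word.
RPA135, chrXVI:581275-581325, minus strand: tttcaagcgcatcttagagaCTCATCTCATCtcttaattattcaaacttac
RPA34, chrX:140307-140352, plus strand: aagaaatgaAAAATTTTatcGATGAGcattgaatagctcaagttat
RET1, chrXV:733561-733606, minus strand: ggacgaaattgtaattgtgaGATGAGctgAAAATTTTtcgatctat
RPA49, chrXIV:182713-182758, minus strand: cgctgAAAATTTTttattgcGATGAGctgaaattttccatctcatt
RPC31, chrXIV:348579-348624, minus strand: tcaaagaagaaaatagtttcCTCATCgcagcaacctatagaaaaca
RPC25, chrXI:176650-176695, minus strand: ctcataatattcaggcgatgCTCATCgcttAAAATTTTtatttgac
RPC40, chrXVI:746893-746938, minus strand: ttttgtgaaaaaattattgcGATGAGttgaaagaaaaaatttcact
RPC19, chrXIV:412624-412669, plus strand: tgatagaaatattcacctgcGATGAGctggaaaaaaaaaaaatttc

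The next 3 stretches are the 60 bases before the counted regions of RPA12, RPC17 and RPC10. They are shown for contrast, since with RPC25 these genes made up the 4 called lower in Δsyc1, and neither word is in their windows. That says only that these letters are not there.
RPA12, chrX:555089-555148, plus strand: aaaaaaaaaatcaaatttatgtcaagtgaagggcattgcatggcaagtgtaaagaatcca
RPC17, chrX:414811-414870, minus strand: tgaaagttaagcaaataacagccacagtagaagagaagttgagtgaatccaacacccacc
RPC10, chrVIII:387144-387203, plus strand: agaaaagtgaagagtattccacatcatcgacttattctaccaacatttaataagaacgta

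Most subunit genes were a little lower in Δsyc1 than in wild type, and a few small subunits were much lower. A gene was called changed where the adjusted p was below 0.1 and the change exceeded 1.5-fold (0.585 on the log2 scale). Of the 28 genes, 4 were called lower (RPA12, RPC25, RPC17 and RPC10) and 0 higher, where 8.15% of all 4845 genes tested were called lower and 9.08% higher. Over all genes this was 395 lower and 440 higher, a split that the scaling moved (655 and 308 with library totals alone, 524 and 373 with upper-quartile factors). Without the fold minimum 18 subunit genes passed as lower and 3 as higher, against 35.5% and 33.5% of all genes, and 7 did not pass. In 20 genes both Δsyc1 libraries were below both wild-type libraries, against 43.2% of all genes, and in 3 both were above, against 40.5%.

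The median log2 fold change of the 28 was -0.21, beside -0.02 over all genes tested. It was -0.31 for the 5 Pol I genes, -0.15 for the 6 Pol II genes, -0.18 for the 10 Pol III genes and -0.22 for the 7 shared genes. The 24 genes that were not called ranged from -0.45 to 0.21. Subunit genes took 0.678% and 0.667% of the counts of the Δsyc1 libraries and 0.761% and 0.741% of those of wild type. Of the 28, 23 were lower in Δsyc1 replicate 2 than in replicate 1, and the median was -0.14 without the former and -0.28 without the latter. The median was -0.21 for the 15 genes with a PAC core, of which 1 was called, and -0.21 for the 13 without, of which 3 were called. With an offset for transcript length the medians were -0.13 and -0.05. Without the fold minimum 8 genes with the word passed as lower and 3 as higher, against 10 and 0 of those without. Of these 3, RPB2 has its only core inside the coding region. The only core of RPO31 lies inside its counted region, before the first coding base.

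**Figure D2:**
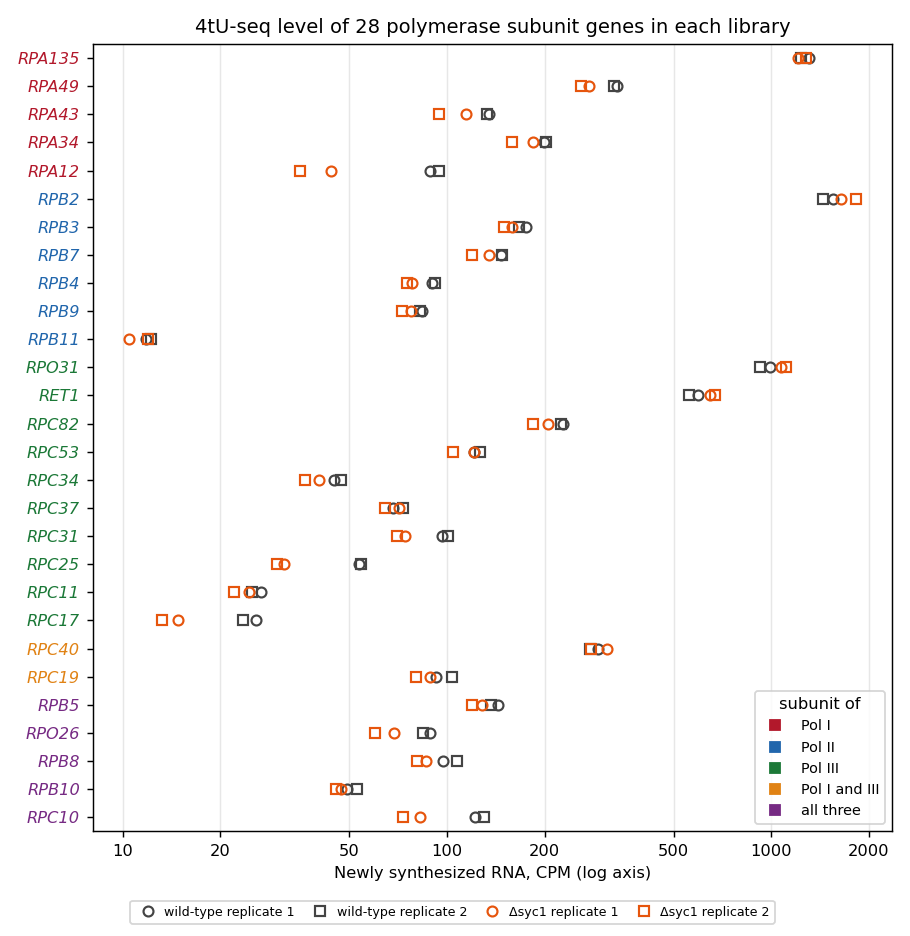
CPM of the 28 subunit genes (x axis, log scale) in the 2 wild-type (dark) and 2 Δsyc1 libraries (orange), with gene names coloured by enzyme. The Δsyc1 points of RPA12 lie at 35.3 and 44.0 CPM, left of the wild-type points at 88.7 and 94.7, whereas those of RPC40 overlap the wild-type points.

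RPA12 was the most lowered subunit gene. The gene (YJR063W, chromosome X) encodes the small zinc-binding subunit that gives Pol I its RNA cleavage activity. Its level was 44.0 and 35.3 CPM in Δsyc1 and 88.7 and 94.7 CPM in wild type, so that the groups lay far apart and the Δsyc1 mean was 43.3% of that of wild type. The log2 fold change was -1.21 ± 0.10 (SE, n = 2 against 2, edgeR's quasi-likelihood test, adjusted p = 1.92e-05). It was called under every alternative tried, over a range from -1.38 to -0.95.

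The other Pol I genes moved less. RPA49 (YNL248C), which with RPA34 forms a built-in heterodimer related to the Pol II factor TFIIF, had 275 and 259 CPM in Δsyc1 against 336 and 327 in wild type (log2 fold change -0.31 ± 0.05, adjusted p = 0.00116). RPA43 (YOR340C), the stalk subunit through which the initiation factor Rrn3 binds, had 115 and 94.2 CPM against 134 and 133 (-0.36 ± 0.09, adjusted p = 0.00682). In both genes the groups did not overlap, but the change stayed under 1.5-fold. RPA34 was lower by a smaller amount (-0.23 ± 0.07, adjusted p = 0.0229). RPA135 (YPR010C), the second-largest subunit, had 1210 and 1279 CPM against 1311 and 1238, and its groups overlapped (-0.03 ± 0.06, adjusted p = 0.656). With the length offset RPA135 passed, at -0.24 (adjusted p = 0.00381), and RPA34 did not, at -0.10 (adjusted p = 0.207).

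In Pol III the genes called lower were those of the stalk. RPC25 (YKL144C, chromosome XI) and RPC17 (YJL011C, chromosome X) encode the 2 proteins that pair to form it. RPC25 had 31.5 and 29.9 CPM in Δsyc1 and 53.7 and 54.2 CPM in wild type (log2 fold change -0.81 ± 0.07, adjusted p = 2.02e-05). RPC17, one of the least abundant subunit RNAs, had 14.8 and 13.2 CPM against 25.7 and 23.6 (-0.81 ± 0.10, adjusted p = 0.000161), from 283 to 973 counts a library. Their Δsyc1 means were 56.9% and 57.0% of those of wild type, with no overlap between the groups. In the test of DESeq2 against a 1.5-fold change, rather than against no change, neither passed, with adjusted p = 0.361 and 1.

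Of the genes for the 3 proteins of the Pol III initiation subcomplex, RPC31 was the most lowered in the main fit. The gene (YNL151C) had 74.4 and 70.4 CPM against 96.6 and 101 (log2 fold change -0.45 ± 0.06, adjusted p = 0.000321), which was under the fold minimum. Its partners RPC34 and RPC82 were at -0.26 and -0.21 (adjusted p = 0.0153 and 0.0163). With the length offset RPC31 and RPC82 were almost equal, at -0.31 and -0.30 (adjusted p = 0.00167 and 0.00556). RPC34 was at -0.16 in that fit (adjusted p = 0.0706). The TFIIF-like pair of RPC53 and RPC37 (-0.13 and -0.06, adjusted p = 0.152 and 0.511) did not pass. Nor did the cleavage subunit RPC11 (YDR045C), with 24.6 and 22.1 CPM against 26.8 and 24.9 (-0.15, adjusted p = 0.171).

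The large subunits of Pol III and the second-largest of Pol II were slightly higher. RPO31 (YOR116C), the largest, had 1074 and 1115 CPM in Δsyc1 against 990 and 925 in wild type (log2 fold change 0.19 ± 0.06, adjusted p = 0.0235). RET1 (YOR207C), the second-largest, had 646 and 673 CPM against 593 and 556 (0.20 ± 0.06, adjusted p = 0.0155). RPB2 (YOR151C), the second-largest subunit of Pol II, had 1645 and 1829 CPM against 1548 and 1450 (0.21 ± 0.07, adjusted p = 0.0344). In all 3 genes both Δsyc1 libraries were above both wild-type libraries. With an offset for transcript length in each library their values were -0.05, 0.01 and -0.00 and none of the 3 passed. No subunit gene passed as higher without wild-type replicate 2 or with library totals alone, and 1 did with upper-quartile factors.

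Of the remaining 5 Pol II genes, 4 passed as lower and RPB11 did not. The stalk genes RPB4 and RPB7 pair as RPC17 and RPC25 do. RPB4 (YJL140W) had 77.9 and 75.4 CPM against 90.1 and 91.9 (log2 fold change -0.25 ± 0.06, adjusted p = 0.00500), and RPB7 (YDR404C) had 135 and 120 CPM against 146 and 148 (-0.21 ± 0.06, adjusted p = 0.0212). RPB3, of the assembly heterodimer with RPB11, was at -0.15 (adjusted p = 0.0461). The groups of these 3 genes did not overlap, but no Pol II gene was called. RPB9 (YGL070C), the counterpart of RPA12, had 77.6 and 72.5 CPM against 83.9 and 82.6 (-0.15 ± 0.06, adjusted p = 0.0582). RPB11 was at -0.10 ± 0.11 (adjusted p = 0.423), with overlapping groups. With the length offset no Pol II gene passed in either direction, and RPB4, RPB7 and RPB3 were at -0.07, -0.05 and -0.07 and RPB9 and RPB11 at 0.05 and 0.22.

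Among the shared subunits RPC10 stood lowest. RPC10 (YHR143W-A, chromosome VIII), also known as RPB12, is a small zinc-binding protein of all 3 enzymes. It had 82.8 and 73.3 CPM in Δsyc1 and 122 and 130 CPM in wild type, 61.8% of the wild-type mean with no overlap (log2 fold change -0.69 ± 0.07, adjusted p = 7.80e-05). With the length offset it was at -0.41 and no longer past the fold minimum. RPO26 (YPR187W), the common subunit also called RPB6, whose gene has 1 intron, had 68.4 and 60.2 CPM against 88.5 and 84.0 (-0.42 ± 0.07, adjusted p = 0.00124). RPB8 (YOR224C) had 86.2 and 80.7 CPM against 97.5 and 107 (-0.30 ± 0.07, adjusted p = 0.00551). Both groups of values were separate but under 1.5-fold. RPB5 was at -0.18 and RPB10 at -0.14 (adjusted p = 0.0249 and 0.102). Of the Pol I and III heterodimer, RPC40 was at 0.05 (adjusted p = 0.494) and RPC19 at -0.22 (adjusted p = 0.0344). With the length offset RPO26 was at -0.19 and RPB8, RPB5 and RPC19 were at -0.05, -0.02 and 0.01, the last 3 no longer passing. RPB10 was at 0.12 in that fit (adjusted p = 0.0997), the only subunit gene that passed as higher there. Another region on the opposite strand covers 567 of the 655 nt of RPC19, and whether the counting used strand was not stated.

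**Figure D3:**
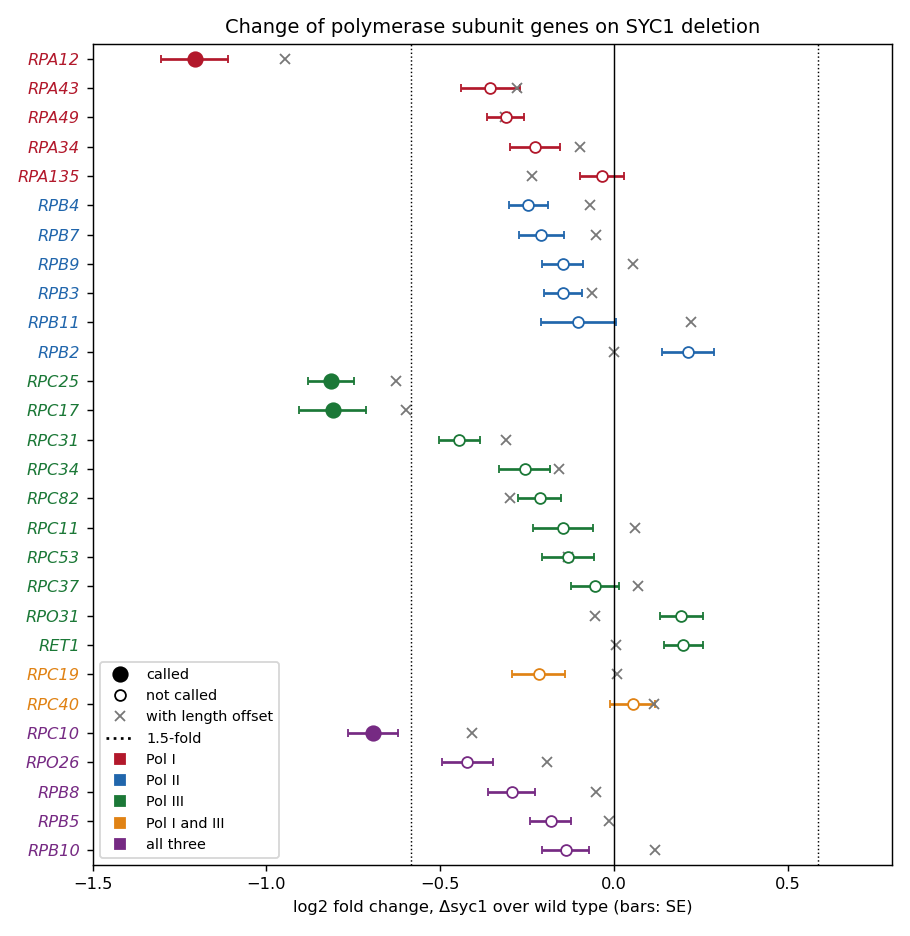
Log2 fold change of Δsyc1 over wild type (x axis) with its standard error for the 28 subunit genes, filled where called, and dotted lines at a 1.5-fold change. The 4 called genes lie at -1.21 to -0.69 on the x axis, and crosses give the value with an offset for transcript length, which lies at -0.95 to -0.41 for these 4.

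Homologous subunits of the 3 enzymes had unlike changes. Within a library, the ratio of 2 genes per kilobase of counted region does not depend on how libraries are scaled. RPA12, RPB9 and RPC11 are homologous small zinc-binding subunits of Pol I, II and III. The ratio of RPA12 to RPB9 was 0.687 ± 0.0738 (SD, n = 2) in Δsyc1 and 1.44 ± 0.0819 in wild type, 2.09 times higher in wild type. The ratio of RPA12 to RPC11 was 2.16 ± 0.177 and 4.53 ± 0.435. That of RPC11 to RPB9 was 0.318 in both groups, with overlapping values, so that RPA12 differed against both of its counterparts while these had like ratios to each other. With 2 libraries in each group the smallest two-sided p of an exact permutation test is 0.333, which the first 2 of these ratios reached.

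In the stalk the 2 genes of one enzyme had like ratios in both groups, whereas ratios across enzymes differed. RPC25 over RPC17 was 1.95 in both groups, with overlapping values, and RPB4 over RPB7 was 0.649 in Δsyc1 and 0.664 in wild type, also overlapping. Across enzymes, RPC25 over RPB7 was 0.270 ± 0.0122 in Δsyc1 and 0.410 ± 0.000520 in wild type. RPC17 over RPB4 was 0.214 ± 0.0119 against 0.318 ± 0.0237. Neither of these overlapped between the groups, and the wild-type ratios were 1.52 and 1.48 times those of Δsyc1. The counted regions of each pair are of similar length (777 nt for RPC25 and 870 nt for RPB7, 689 nt for RPC17 and 809 nt for RPB4). RPA43 over RPB7 moved less, from 0.677 in wild type to 0.610 in Δsyc1.

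Ratios among the large subunits differed in how far they moved. RET1 over RPO31 was 0.782 ± 0.00181 in Δsyc1 and 0.778 ± 0.00206 in wild type. RET1 over RPB2 was 0.417 and 0.420, with overlap. RPA135 over RPB2 was lower in Δsyc1, at 0.754 ± 0.0271 against 0.894 ± 0.00481. Among the common subunits, RPC10 over RPB10 was 1.89 ± 0.116 in Δsyc1 against 2.79 ± 0.0185 in wild type.

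Transcript length moved with these changes. All 17 subunit genes with counted regions under 1000 nt had negative log2 fold changes, with a median of -0.23 and all 4 calls, whereas the 11 longer ones had a median of -0.13 and 0 calls. Over all 4845 genes tested 2499 were negative and 8.15% were called lower. No share was taken over all genes of like length, so these counts do not set the subunit genes apart from other short genes. Across the 28 genes, Spearman's rho of the log2 fold change with length was 0.52, as a description, since all genes share the same 4 libraries. Over the 4802 mRNAs tested it was 0.33. Length also moved with differences inside a group. Over the same mRNAs rho was -0.35 for Δsyc1 replicate 1 against 2 and 0.18 for wild-type replicate 1 against 2, and over the 28 genes it was -0.21 and 0.50.

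A fit with an offset for length, a smooth curve of counts on length in each library, brought rho to -0.0035 over all mRNAs and to -0.04 over the 28 genes. In that fit the median of the 28 genes was -0.07. RPA12 (-0.95), RPC25 (-0.63) and RPC17 (-0.60) were called lower, where 5.61% of all genes were. Without the fold minimum 11 subunit genes passed as lower and 1 as higher, against 32.9% and 34.7% of all genes. The part of length in these results was not tested further.

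**Figure D4:**
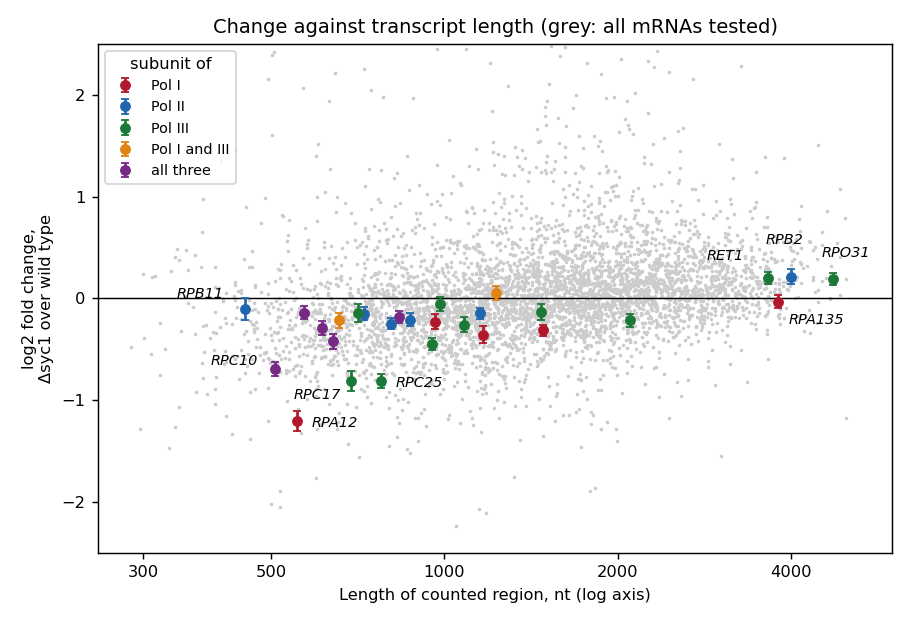
Log2 fold change of Δsyc1 over wild type (y axis) against the length of the counted region (x axis, nt, log scale) for the 28 subunit genes with standard errors, coloured by enzyme, and all mRNAs tested (grey, of which 13 of 4802 lie outside the axes). RPA12, RPC25, RPC17 and RPC10 are all under 1000 nt and lie below the other subunit genes of their length, and RPB2, RPO31 and RET1 lie above 0 at the right.

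Per kilobase, newly made subunit RNAs spanned a 14.1-fold range in wild type, from the highest to the lowest gene. RPB2 was highest, at 375 ± 17.3 CPM per kilobase (SD, n = 2), followed by RPA135 (336 ± 13.7) and RPC10 (249 ± 11.5). RPB11 was lowest, at 26.7 ± 0.673. Per kilobase of coding length RPC10, whose coding part is short, was highest instead, at 593 CPM per kilobase. By counted region, RPC17 (35.7 ± 2.17) and RPC11 (36.6 ± 1.83) came next above RPB11 and overlapped, so that their order was not set. The median subunit gene was at 142 CPM per kilobase, beside 65.4 for all mRNAs tested, and 24 of the 28 lay above that. Neighbours in the order overlapped in 12 of 27 pairs. The 7 genes from RPB7 (169 ± 1.45) to RPB3 (148 ± 4.77), with RPB5, RPB8, RPA12, RET1 and RPC19 between them, overlapped each with the next.

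In Δsyc1 the range was wider, at 21.4-fold, and the median was 102 CPM per kilobase. RPB2 (435 ± 32.6) and RPA135 (328 ± 12.8) still led. RPC10 went from place 3 to place 8, at 154 ± 13.2, and RPA12 from place 11 to place 22, at 71.4 ± 11.1. RPC17 became the lowest, at 20.3 ± 1.61, below RPB11 (24.9 ± 2.38) with no overlap. In this group 18 neighbouring pairs overlapped.

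**Figure D5:**
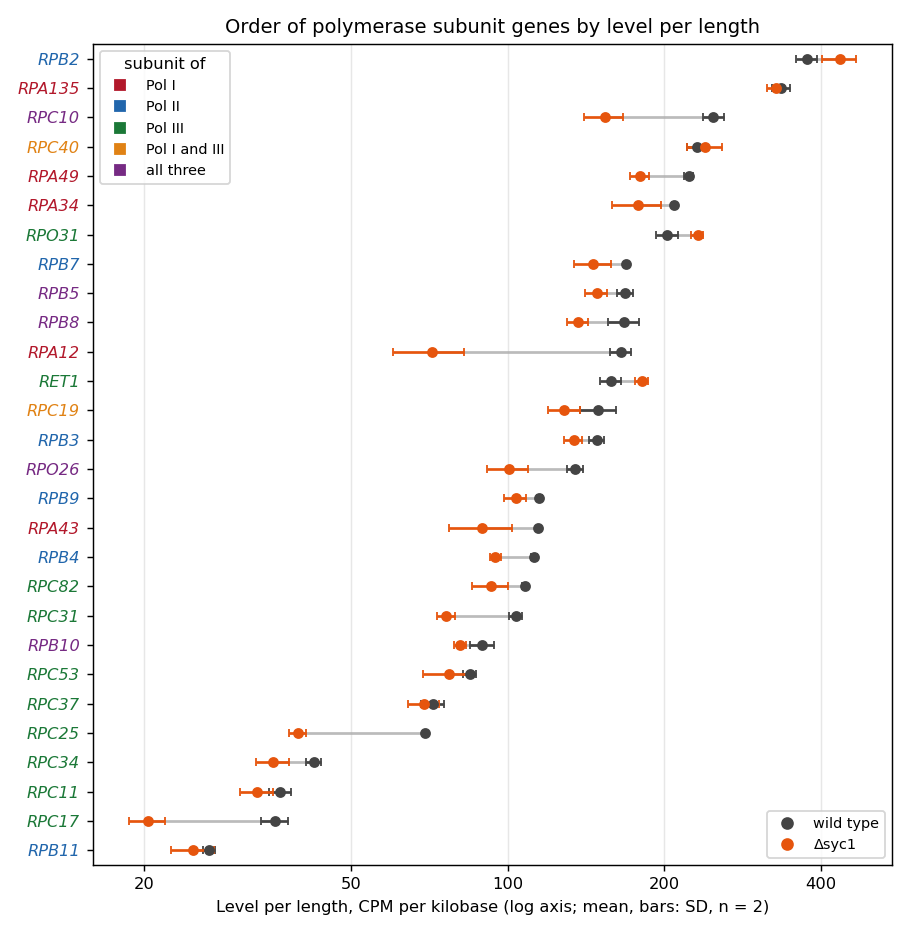
Level of each subunit gene per kilobase of counted region (x axis, CPM per kilobase, log scale) in wild type (dark) and Δsyc1 (orange), as means with SD bars (n = 2), ordered by the wild-type level. RPA12 drops from 165 to 71.4 and RPC10 from 249 to 154. RPB2, RPO31, RET1 and, with overlapping groups, RPC40 lie to the right of wild type.

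The factors that work with the polymerases were taken as lists of 44 genes, of which 40 were tested, and RRN5, SPT5, TFC3 and SFP1 were not analysed here. Of the 40, 4 were called lower and 1 higher, against 8.15% and 9.08% of all genes, and their median log2 fold change was -0.02, beside -0.02 over all genes. Of the 8 Pol I factors 2 were called lower and 0 higher (median -0.28). Both belong to core factor, which binds the promoter of ribosomal DNA. RRN11 had 25.8 and 24.3 CPM in Δsyc1 against 86.0 and 96.4 in wild type (log2 fold change -1.86 ± 0.08, adjusted p = 5.26e-07), the lowest value of any gene on these lists. RRN7 had 44.4 and 41.1 CPM against 79.97 and 89.8 (-0.99 ± 0.08, adjusted p = 1.64e-05). The third core factor gene, RRN6, was chosen after its value was seen and was at -0.18 ± 0.05 (adjusted p = 0.0148). RRN11 and RRN7 have counted regions of 1824 and 1767 nt, and with the length offset they were at -1.92 and -1.03.

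Of the 11 Pol II factors 2 were called lower and 0 higher (median 0.05). SPT4, of the Spt4-Spt5 elongation factor, had 37.5 and 33.3 CPM against 61.3 and 70.5 (log2 fold change -0.89 ± 0.09, adjusted p = 6.45e-05), and TOA2, the small subunit of TFIIA, had 22.6 and 19.99 CPM against 38.9 and 40.1 (-0.89 ± 0.08, adjusted p = 3.97e-05). Both are short, at 468 and 617 nt, and with the length offset SPT4 (-0.58) was just under the fold minimum while TOA2 (-0.65) was past it. None of the 9 Pol III factors was called (median -0.10). The largest changes among them were in PZF1, which encodes TFIIIA (-0.43 ± 0.06, adjusted p = 0.000376), and MAF1, the repressor of Pol III (0.34 ± 0.05, adjusted p = 0.000513). None of the 9 assembly and import factors was called (median 0.07), and RTR1 (-0.37, adjusted p = 0.00266) and RTP1 (0.35, adjusted p = 0.000644) were the furthest from 0. Without the fold minimum 4 of the Pol III factors passed as lower and 2 as higher, and 2 and 3 of the assembly factors. Over all genes 35.5% passed as lower and 33.5% as higher.

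The 2 PAC-binding repressors went opposite ways. DOT6 had 415 and 434 CPM in Δsyc1 against 260 and 285 in wild type and was called higher (log2 fold change 0.64 ± 0.06, adjusted p = 4.71e-05). The call was near the fold minimum and was lost with the length offset (0.54), with upper-quartile factors (0.55), with library totals alone (0.48), without wild-type replicate 1 (0.57) and in the test of DESeq2 against a 1.5-fold change. TOD6, its paralog, had 141 and 121 CPM against 183 and 197 and was just under the fold minimum (-0.53 ± 0.08, adjusted p = 0.000493). It was past it with the length offset (-0.59), with upper-quartile factors (-0.62), with library totals alone (-0.68) and without Δsyc1 replicate 1 (-0.65). STB3, which binds the RRPE, had 411 and 379 CPM against 342 and 379, with the nearest values of the groups almost equal (0.13 ± 0.07, adjusted p = 0.112).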

How the data were processed

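Newly synthesized RNA of 2 Δsyc1 and 2 wild-type libraries was analysed, each made from 100 ng of labelled RNA. Per the submitters' notes and the study's methods, the authors aligned paired-end reads to sacCer3 with STAR 2.3.0, filtered them with SAMtools and counted them with HTSeq over regions bounded by transcript isoform sequencing, and deposited these raw counts for 4909 mRNAs and 61 sn/snoRNAs. The deposited annotation gave other values, region coordinates. The deposited DESeq2 table of the authors' own comparison (mean, log2 fold change, standard error, test score, p-values) was not used.

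Genes with a mean normalized count of at least 30 in either group were kept (4845), scaled by TMM and fitted with the quasi-likelihood test of edgeR 4.0.16 (R 4.3.3), group as the only term, with Benjamini-Hochberg adjustment over all genes. CPM are TMM-scaled counts per 1000000, levels per kilobase divide them by the counted region, and precision is limited by 2 biological replicates a group. The procedure was tested on simulated data with a common dispersion for all genes and no trend with length, so that test does not bear on the length trends described above. Alternatives were DESeq2 1.42.0, other scaling factors and filters, a length offset, a replicate block and leaving out each library. Promoters came from the R64 genome and RefSeq annotation. Values in every library were given for called genes, the 3 most changed of each class, the largest subunits and homologous sets. Other subunit genes were given by their fold change, and of other lists the called genes, the 2 most changed and the PAC and RRPE regulators were named, with RRN6 added after its value was seen. Members and lists were chosen with earlier results of these data known, so that their p-values do not come from a blind selection.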

Additional observations from a re-analysis of the deposited data

How the results depend on the processing

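The direction of RPA12, RPC25, RPC17 and RPC10 was the same under every alternative run, and 4 subunit genes were called lower without each library in turn. In the test of DESeq2 against a 1.5-fold change 1 was called, and 3 of the genes on the factor lists. Of all 4845 genes, 127 were called lower and 229 higher in that test. Without the fold minimum 18 were called lower and 3 higher, against 35.5% and 33.5% of all genes. On the factor lists 28 of 40 passed, 16 as lower and 12 as higher. The median of the subunit genes was -0.30 with upper-quartile factors and -0.36 with library totals alone, settings that put the median of all genes at -0.10 and -0.17, and -0.068 with the length offset, with or without the replicate block. With coding length in place of the counted region the range of levels was 17.9-fold in wild type.

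Among named genes, 520 values under alternatives had the direction and the side of the threshold of the main value, 14 fell short of the threshold, 28 came past it and 23 changed sign. The tally includes the setting without a fold minimum, which is the main fit with that threshold dropped. Values in that setting cannot change sign or fall short, and most of the 28 that came past the threshold did so there, by construction alone. The length offset turned RPB2 (-0.0020), RPB9 (0.054), RPB11 (0.22), RPO31 (-0.054), RPC37 (0.070), RPC11 (0.060), RPC19 (0.0090) and RPB10 (0.12), and with the replicate block they were at -0.0017, 0.053, 0.22, -0.054, 0.069, 0.059, 0.0097 and 0.12. With single libraries left out, RPA135 ranged from -0.078 to 0.0078, above 0 without Δsyc1 replicate 1 (0.0029) and wild-type replicate 1. RPC37 ranged from -0.13 to 0.0086, above 0 without Δsyc1 replicate 2, and RPC40 from -0.030 (without Δsyc1 replicate 1) to 0.13. RPC40 also turned with upper-quartile factors (-0.030) and library totals alone (-0.097), and STB3 with the latter (-0.020). The cause was not tested, apart from what an offset for length does by construction.

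Deviations of same-numbered libraries from their group means correlated at -0.20. With 2 libraries a group this is a single value, which cannot decide whether the numbers pair the samples. With the replicate block 4 subunit genes were called lower and 0 higher (397 and 441 of all genes), and SYC1 was at -8.21. A crossed pairing, chosen after seeing the data, called 4 and 0 (398 and 441 of all genes). With 2 replicates a group, changes under 1.5-fold are sensitive to single libraries.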

Other observations

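The genes next to the 4 called subunit genes were examined as values. RPA12 lies between NTA1, which starts 345 bases away on the other strand (log2 fold change 0.28, adjusted p = 0.00254), and CCT5, 341 bases downstream (0.07, adjusted p = 0.330). RPC25 is 299 bases from LTV1 on the other strand (-0.34, adjusted p = 0.00256), a ribosome assembly factor. VTC4, 885 bases downstream of RPC17, was at 0.11 (adjusted p = 0.201). RPT1, the other neighbour of RPC25, and the tRNA gene upstream of RPC17 had no value. Both neighbours of RPC10 were lower without passing the fold minimum. DSE2, 745 bases upstream on the same strand, was at -0.57 (adjusted p = 6.45e-05), and DCD1, whose counted region overlaps that of RPC10 by 3 nt on the other strand, was at -0.55 (adjusted p = 0.000515).

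Of the 28 subunit genes 13 overlap a region on the other strand. The overlap was largest at RPC19, where the opposite region YNL114C had 14 and 13 counts in Δsyc1. Its wild-type counts were 44 and 56 (log2 fold change -1.19, adjusted p = 0.00905), although it covers 567 of the 655 nt of RPC19. Of the 13 genes 1 was called lower (median -0.18), and of the 15 without such an overlap 3 were (median -0.26).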
